A study of Homo sapiens with 11 samples.

Results

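The genes described here encode fibronectin (FN1), periostin (POSTN), tenascin C (TNC), SPARC (also called osteonectin), thrombospondins 1 and 2 (THBS1, THBS2), elastin (ELN), fibulin 1 (FBLN1), fibrillin 1 (FBN1) and versican (VCAN). They were listed by name, with earlier results of these data known, and all 10 were among the 19990 genes of the count table. RNA came from cardiomyocytes made from WTC11, an established line of human induced pluripotent stem cells, at passage 63. All wells came from 1 differentiation, driven by the GSK3 inhibitor CHIR99021 and then the Wnt secretion inhibitor IWP2, and were afterwards fed RPMI1640 with insulin-containing B27. The groups are 4 wells taken at Day 30, 3 at Day 60 and 4 at Day 113, and the labels give no other difference in treatment. The wells carry no information on a second differentiation or line, and collection and day of culture cannot be told apart.

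These genes build and tune the extracellular matrix. Fibronectin forms a provisional meshwork that cells grip through integrins, and versican swells it with hyaluronan. Fibrillin 1 forms microfibrils on which elastin is laid down, with fibulins as linkers. Periostin, tenascin C, SPARC and the thrombospondins are called matricellular proteins, because they mostly adjust how cells meet the matrix and are prominent in the developing and injured heart, where fibroblasts and other non-muscle cells make much of it.

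Promoter sequences are given first for 4 members, FN1 and TNC, which were lower at both later days than at Day 30, and POSTN and THBS2, which were higher at Day 113. Each is the stretch of 250 bases before the gene's RefSeq start (GRCh38.p14), 5′ to 3′ on the gene's own strand, which is the minus strand for all 4. The windows are chr2:215436069-215436318 (FN1), chr9:115118158-115118407 (TNC), chr13:37598769-37599018 (POSTN) and chr6:169253847-169254096 (THBS2). Other transcripts in GENCODE release 29 start inside these windows and cover 104, 100, 76 and 105 of their bases. Capitals mark matches, on either strand, to the motifs searched: the TATA box as TATAAA, the CCAAT box by those letters, the GC box as GGGCGG, the AP-1 motif as TGANTCA, the cyclic AMP response element as TGACGTCA, the TEAD motif as CATTCC, and the CArG box.
FN1: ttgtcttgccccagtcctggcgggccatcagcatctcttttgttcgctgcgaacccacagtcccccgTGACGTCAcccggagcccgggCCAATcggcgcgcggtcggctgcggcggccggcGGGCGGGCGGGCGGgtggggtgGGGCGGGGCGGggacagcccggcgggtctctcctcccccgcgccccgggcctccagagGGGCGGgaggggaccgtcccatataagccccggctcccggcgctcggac
TNC: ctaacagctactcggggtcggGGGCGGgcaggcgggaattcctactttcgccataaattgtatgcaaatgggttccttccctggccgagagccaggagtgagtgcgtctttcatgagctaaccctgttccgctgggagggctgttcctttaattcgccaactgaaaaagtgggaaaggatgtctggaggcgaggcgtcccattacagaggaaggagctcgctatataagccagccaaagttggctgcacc
POSTN: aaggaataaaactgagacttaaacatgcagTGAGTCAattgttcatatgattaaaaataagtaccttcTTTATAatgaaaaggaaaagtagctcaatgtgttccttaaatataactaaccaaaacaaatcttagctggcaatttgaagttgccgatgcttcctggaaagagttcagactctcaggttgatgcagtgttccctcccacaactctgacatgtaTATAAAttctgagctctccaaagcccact
THBS2: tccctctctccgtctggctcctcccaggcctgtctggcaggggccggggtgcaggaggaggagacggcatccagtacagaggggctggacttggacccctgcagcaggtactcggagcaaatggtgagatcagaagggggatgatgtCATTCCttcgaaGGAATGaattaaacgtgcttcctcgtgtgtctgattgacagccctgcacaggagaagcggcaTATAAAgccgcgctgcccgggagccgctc
The POSTN and THBS2 windows each held TATAAA at positions -29 to -24 from the start, a motif present in 10.7% of 35116 promoter windows of this length. The FN1 window held TGACGTCA at -183 to -176 (1.65% of windows), CCAAT at -162 to -158 (32.0%) and 6 copies of GGGCGG (42.6%), all but the last of which overlapped a neighbouring copy. The POSTN window also held TGAGTCA, an AP-1 match, at -220 to -214 (6.57%) and a TATA box match on the other strand, and THBS2 held CATTCC in both orientations (11.9%). Of the motifs searched, the TNC window held only a GC box. The TATA box was searched only as the exact letters TATAAA. Related stretches near the start, tatataag in TNC and catataag in FN1, were therefore left unmarked. The CArG box, found in 1.16% of windows, was in none of the 9 member windows, and ELN had no entry. The GC content was 36.4% for POSTN and 76.4% for FN1, against a median of 58% over all windows. A match describes letters only, and binding was not measured.

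The 11 libraries held 24.1 to 34.5 M read counts each. All 15 pairs of wells from the same day differed beyond counting error (chi-square over degrees of freedom, 11.2 to 80.8). All 12 cardiomyocyte markers listed (such as TNNT2, ACTN2 and TTN) were detected in every well, with a summed level of 34327 to 49919 CPM. CPM is the usual count level relative to library size, here scaled between libraries by the TMM method.

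Every one of the 10 genes changed over the 3 days, where 37.1% of all genes did (edgeR quasi-likelihood test, Benjamini-Hochberg adjusted p under 0.05 over 19990 genes, used throughout). Since the list was drawn up with earlier results known, this count describes the 10 genes and does not test the list. FN1, TNC, VCAN and FBLN1 fell between Day 30 and Day 113, while ELN, THBS2, POSTN, FBN1 and THBS1 rose. SPARC fell to Day 60 and rose again to about its first level. The plot of wells by day shows each gene.

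**Figure D1:**
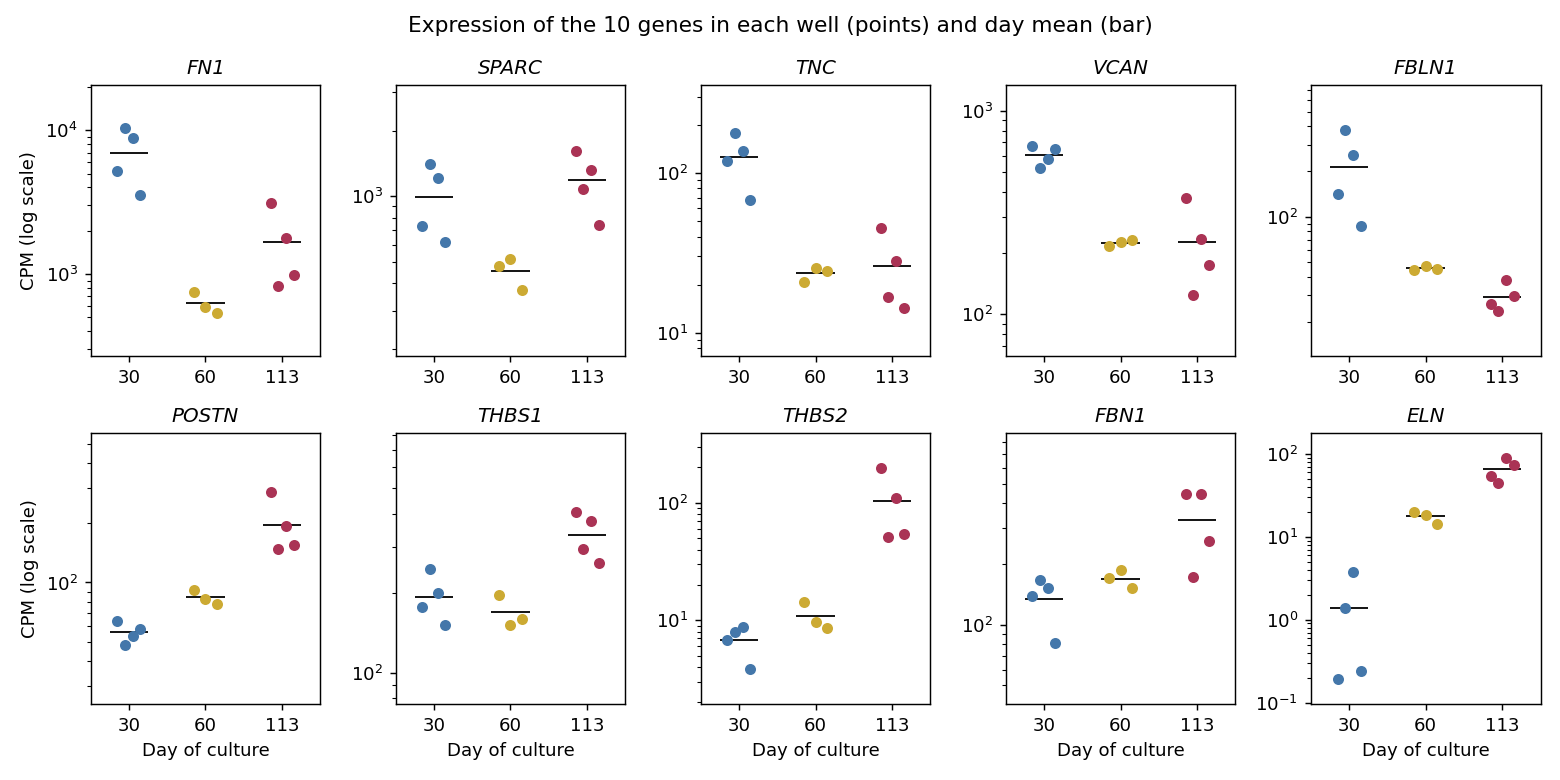
Each panel plots 1 gene's level in CPM (log scale) against day of culture, with a point per well (4, 3 and 4 wells) and a bar at the day mean. FN1, TNC, VCAN and FBLN1 are highest at Day 30, ELN climbs at each day, and THBS2 is high only at Day 113, where its 4 wells lie between 51.3 and 197 CPM.

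Between Day 30 and Day 60, 5 of the 10 genes fell (5.91% of all genes did) and 2 rose (4.39%), 7 calls in all against a background of 10.3%. The median log2 fold change of the 10 was -0.66, against -0.01 for all genes. Wells of the 2 days did not overlap for 7 of the 10, against 24.8% of all genes. Between Day 60 and Day 113, 7 rose (12.9% of all genes did) and 0 fell (11.1%; also 0 at an unadjusted p under 0.05, with DESeq2 and with limma-voom), 7 calls against 24.0%. The median was 1.10, against 0.00 for all genes, and 7 did not overlap, against 30.6%. From Day 30 to Day 113, 5 rose (17.3%) and 4 fell (17.2%), 9 calls against 34.5%, and 9 did not overlap, against 35.1%. The comparisons share wells, so their values are given side by side and not as independent evidence of one another. In a whole culture well, fewer cells that make a transcript and less of it per cell cannot be told apart.

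**Figure D2:**
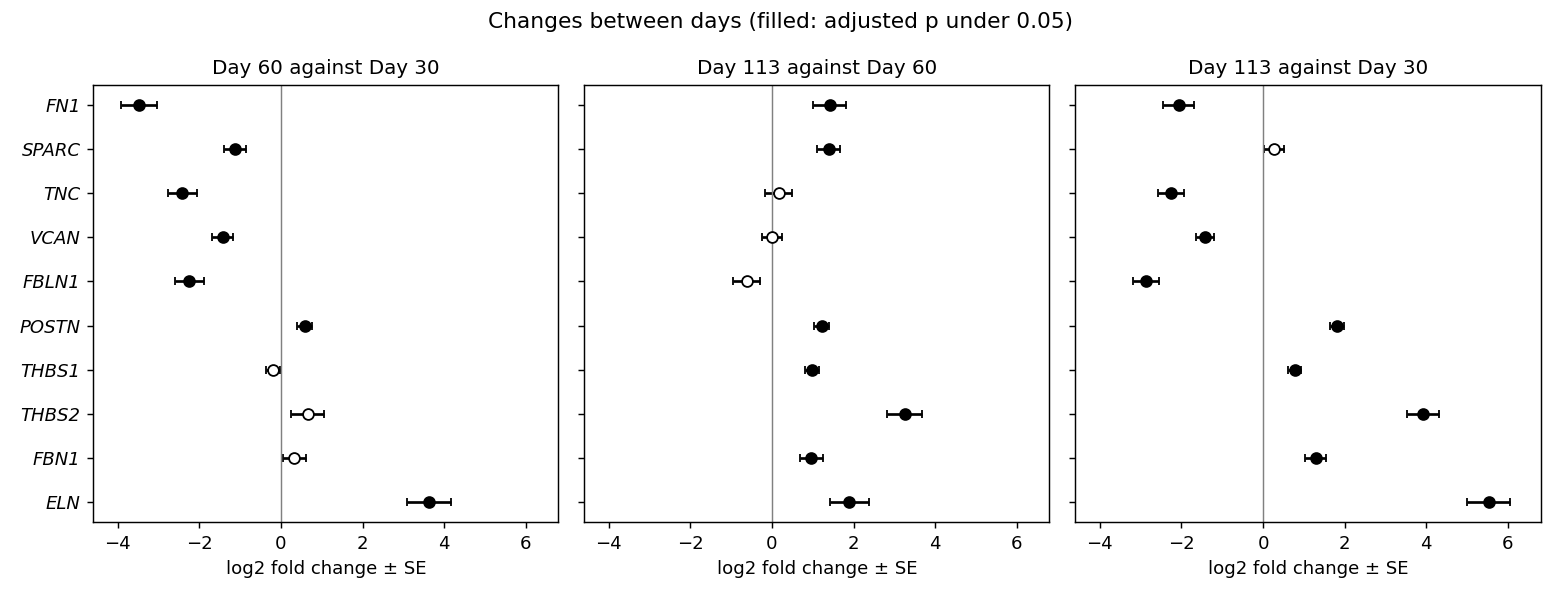
Log2 fold change (x axis) of each gene (y axis) in the 3 comparisons of days, with bars of 1 standard error. Filled points passed an adjusted p of 0.05: 7, 7 and 9 of the 10 genes, and all of the filled points in the middle panel lie above 0.

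Fibronectin, the most abundant of the 10 transcripts at Day 30, fell most steeply of them by Day 60. FN1 (ENSG00000115414, chromosome 2, 215360440 to 215436172, minus strand, GRCh38) stood at 5234, 10350, 8855 and 3530 CPM in the Day 30 wells, at 749, 591 and 535 CPM at Day 60, and at 3099, 819, 1786 and 985 CPM at Day 113. No Day 30 well overlapped either later day, and every Day 113 well lay above every Day 60 well. The fall to Day 60 was 11.2-fold (log2 -3.48 ± 0.45 SE, adjusted p 0.00015). FN1 then rose 2.68-fold (1.42 ± 0.41, adjusted p 0.018) and at Day 113 was still 4.18-fold below Day 30 (-2.06 ± 0.37, adjusted p 0.0005). The later rise was 0.94 on the log2 scale without Day 113 replicate 1. It missed the threshold when Day 60 replicate 2 (adjusted p 0.062) or replicate 3 (0.08) was left out, and with robust dispersions (0.094), within 0.0039 to 0.094 over its alternatives. FN1 ranked 4 to 13 among all genes by counts in the Day 30 libraries, 130 to 189 at Day 60 and 15 to 108 at Day 113. It made up 73.5% ± 4.94 (SD, n = 4) of the counts of the 10 genes in the Day 30 wells. The Day 60 share was 34.1% ± 2.93 (SD, n = 3), and the Day 113 share 37.8% ± 7.41 (SD, n = 4). Together the 10 took 0.930% ± 0.375 (SD, n = 4), 0.181% ± 0.0164 (SD, n = 3) and 0.421% ± 0.181 (SD, n = 4) of all counts on the 3 days.

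Tenascin C, a large oligomeric protein of embryonic and remodelling tissue, fell with FN1 and did not come back. TNC (chromosome 9, 115019578 to 115118257, minus strand) read 118, 177, 138 and 67.4 CPM at Day 30, 20.9, 25.3 and 24.3 CPM at Day 60 and 45.3, 16.8, 28.1 and 14.3 CPM at Day 113. The lowest Day 30 well was above every later well, and the Day 60 and Day 113 wells overlapped. TNC fell 5.32-fold by Day 60 (log2 -2.41 ± 0.36, adjusted p 0.00047), and its later change was 0.16 ± 0.33 (adjusted p 0.78; -0.24 without Day 113 replicate 1).

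Versican, the hyaluronan-binding proteoglycan of the early heart, dropped once as well. VCAN (chromosome 5, 83471465 to 83582303, plus strand) was at 670, 525.8, 582 and 650 CPM at Day 30, 216, 228 and 232 CPM at Day 60, and 372, 125, 234 and 174 CPM at Day 113. The Day 30 wells stood apart from all others, and the Day 113 wells spread around the narrow Day 60 range. The fall to Day 60 was 2.69-fold (log2 -1.43 ± 0.25, adjusted p 0.002), and the change after it was 0.01 ± 0.24 (adjusted p 0.99), whose sign turned with the scaling.

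Fibulin 1, a glycoprotein of elastic fibres and basement membranes, fell over the course. FBLN1 (chromosome 22, 45502238 to 45601135, plus strand) was at 141, 376, 257 and 87.4 CPM at Day 30, 43.9, 47.1 and 44.8 CPM at Day 60 and 26.2, 23.7, 37.9 and 29.7 CPM at Day 113. The 3 days did not overlap at any step. FBLN1 fell 4.75-fold by Day 60 (log2 -2.25 ± 0.35, adjusted p 0.00074) and was 7.32-fold lower at Day 113 than at Day 30 (-2.87 ± 0.33, adjusted p 7e-06), while the second step of -0.62 ± 0.33 did not pass (adjusted p 0.2).

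SPARC, a collagen-binding matricellular glycoprotein, dipped at Day 60. SPARC (chromosome 5, 151661096 to 151687165, minus strand) read 735, 1413, 1214 and 617 CPM at Day 30, 480, 516 and 371 CPM at Day 60 and 1618, 1083, 1321 and 741 CPM at Day 113. All Day 60 wells lay below all others, while Day 30 and Day 113 wells overlapped. The fall was 2.18-fold (log2 -1.13 ± 0.27, adjusted p 0.015) and the rise 2.61-fold (1.39 ± 0.28, adjusted p 0.0021), and Day 113 against Day 30 gave 0.26 ± 0.25 (adjusted p 0.46). The fall missed the threshold when Day 30 replicate 2 (adjusted p 0.061), Day 60 replicate 1 (0.052) or Day 60 replicate 3 (0.093) was left out, and with robust dispersions (0.065), within 0.00091 to 0.093 over its alternatives.

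Periostin, a matricellular protein of cardiac cushions and activated fibroblasts, rose through the culture. POSTN (chromosome 13, 37562583 to 37598844, minus strand) was at 64.1, 48.4, 53.6 and 57.9 CPM at Day 30, 91.8, 82.6 and 77.6 CPM at Day 60 and 285, 148, 194 and 155 CPM at Day 113. The 3 days formed separate ranges. It was 3.49-fold higher at Day 113 than at Day 30 (log2 1.80 ± 0.17, adjusted p 1.2e-06) and rose 2.33-fold after Day 60 (1.22 ± 0.19, adjusted p 0.00027). The first step (0.59 ± 0.18) passed only barely (adjusted p 0.0496). That call was lost without any single Day 30 or Day 60 well, without Day 113 replicate 3, under limma-voom and with robust dispersions, with adjusted p from 0.0037 to 0.15 over its alternatives.

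The thrombospondins, trimeric THBS1 and THBS2 that bind cell surfaces, proteases and growth factors, rose late. THBS2 (chromosome 6, 169215780 to 169254044, minus strand) was at 6.76, 7.97, 8.79 and 3.85 CPM at Day 30, 14.3, 9.65 and 8.52 CPM at Day 60 and 197, 51.3, 111 and 53.8 CPM at Day 113. Day 30 and Day 60 overlapped (log2 0.66 ± 0.40, adjusted p 0.37), and every Day 113 well was above 50 CPM. The rise after Day 60 was 9.55-fold (3.26 ± 0.43, adjusted p 8.2e-05), and Day 113 was 15.1-fold above Day 30 (3.91 ± 0.40, adjusted p 2.1e-06). THBS1 (chromosome 15, 39581079 to 39599466, plus strand), an activator of latent TGF-beta, read 177, 247, 200 and 152 CPM at Day 30, 197, 152 and 160 CPM at Day 60 and 405, 294, 375 and 260 CPM at Day 113. Its Day 113 wells were above all others. THBS1 rose 1.96-fold after Day 60 (0.97 ± 0.17, adjusted p 0.00092), following a change of -0.19 ± 0.17 (adjusted p 0.58) in the first interval.

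Elastin, the stretchable core of elastic fibres, began near the detection limit and rose most of the 10. ELN (chromosome 7, 74027789 to 74069907, plus strand) had 5, 41, 114 and 7 counts in the Day 30 wells, or 0.191, 1.37, 3.75 and 0.240 CPM. It reached 19.8, 18.5 and 14.4 CPM at Day 60 and 54.5, 44.9, 89.3 and 73.3 CPM at Day 113. The days did not overlap, but the Day 30 wells differed among themselves by up to 19.6-fold. ELN rose 12.4-fold by Day 60 (log2 3.63 ± 0.53, adjusted p 0.00045), and by 4.83 on the log2 scale without Day 30 replicate 3. It rose 3.73-fold further (1.90 ± 0.48, adjusted p 0.0093), a call lost under DESeq2 (adjusted p 0.076) and with robust dispersions (0.065), within 9.4e-05 to 0.076 over its alternatives. Day 113 was 46.1-fold above Day 30 (5.53 ± 0.54, adjusted p 1.4e-06), or 6.72 on the log2 scale without Day 30 replicate 3.

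Fibrillin 1, the main microfibril protein of mature elastic tissue, rose too. FBN1 (chromosome 15, 48408306 to 48645849, minus strand) was at 139, 167, 152 and 80.8 CPM at Day 30, 169, 186 and 153 CPM at Day 60 and 442, 172, 445 and 258 CPM at Day 113. Day 113 was above every Day 30 well, but its replicate 2 fell within the Day 60 range. FBN1 was 2.44-fold higher at Day 113 than at Day 30 (log2 1.29 ± 0.26, adjusted p 0.0011), after 0.33 ± 0.27 (adjusted p 0.55) to Day 60 and 0.96 ± 0.28 (adjusted p 0.021) from Day 60. The last change missed the threshold when Day 60 replicate 1 (adjusted p 0.066), Day 60 replicate 3 (0.086) or Day 113 replicate 3 (0.063) was dropped, and with robust dispersions (0.085), within 0.0021 to 0.086. FBN2, the fibrillin best known from development, went the other way. It stood at 1541, 1228, 1159 and 1653 CPM at Day 30, 785, 666 and 654 CPM at Day 60 and 804, 410, 609 and 609 CPM at Day 113. FBN2 fell over the course (log2 -1.20 ± 0.17, adjusted p 5.3e-05) and already by Day 60 (-0.99 ± 0.18, adjusted p 0.0027), and its Day 30 wells lay above all later ones.

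Levels of different genes were compared per length, as CPM per kilobase of annotated exon. FN1 (404 ± 182, SD, n = 4) and SPARC (206 ± 78.7) led at Day 30, well above VCAN (40.9 ± 4.45), and ELN was last (0.212 ± 0.255). The ranges of FN1 and SPARC overlapped, but FN1 was above SPARC within each Day 30 well. At Day 60 SPARC (94.3 ± 15.6, SD, n = 3) led FN1 (36.1 ± 6.40) without overlap, and THBS2 was last (1.69 ± 0.475) with wells that overlapped those of TNC (2.44 ± 0.239). At Day 113 the ranges of SPARC (246 ± 76.9, SD, n = 4) and FN1 (96.6 ± 60.1) overlapped, but SPARC was above FN1 within each well. THBS1 (36.4 ± 7.44) and POSTN (35.8 ± 11.5) followed, with overlapping wells, and TNC (2.71 ± 1.47) was last beside FBLN1 (4.03 ± 0.854). THBS2 moved from place 9 at Day 30 to place 6 at Day 113, with wells that overlapped both neighbours in the order, FBN1 and VCAN. With the longest transcript in place of all exons, places shifted by at most 1 at each day.

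**Figure D3:**
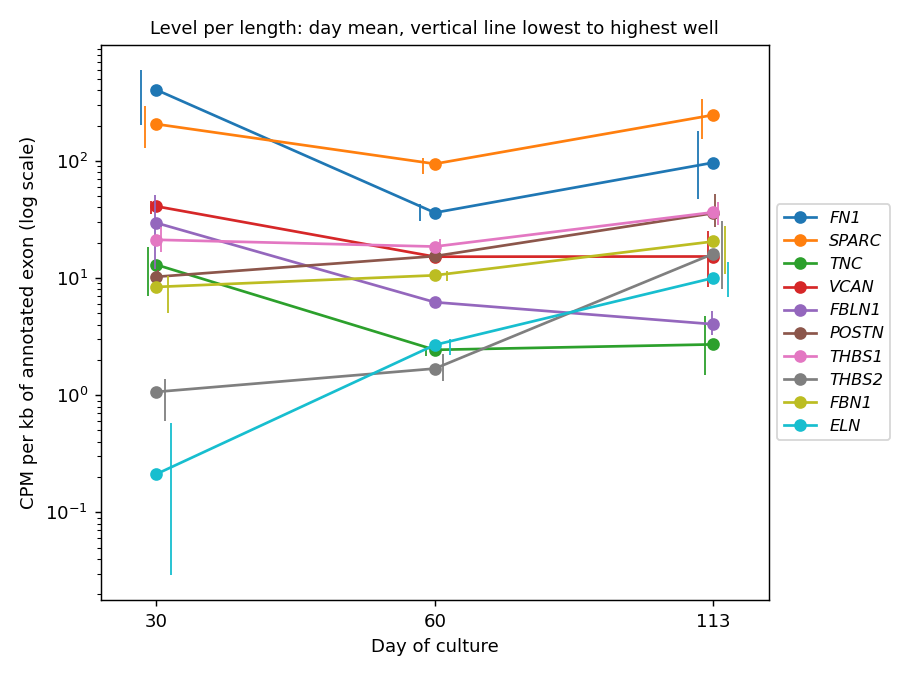
Mean level per length (CPM per kilobase of annotated exon, log scale) against day of culture, a line per gene, with vertical lines from the lowest to the highest well. SPARC and FN1 stay at the top on all days, at 246 and 96.6 by Day 113, while ELN and THBS2 climb from the bottom.

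Whether the change differed between the first and the second interval was tested directly. The second interval (Day 60 to Day 113) is longer than the first (Day 30 to Day 60), and changes were not scaled per day. It did for 5 of the 10 genes, against 9.34% of all genes. The difference (second interval minus first, log2) was 4.90 ± 0.80 for FN1 (adjusted p 0.0018), 2.51 ± 0.51 for SPARC (0.0066), 2.57 ± 0.63 for TNC (0.018), 1.16 ± 0.31 for THBS1 (0.029) and 2.60 ± 0.74 for THBS2 (0.039). FN1 alone passed in every alternative run. Leaving out Day 60 replicate 1, 2 or 3 left 2, 2 and 1 of the genes called, and leaving out Day 30 replicate 2 left 3. POSTN, ELN, FBLN1, FBN1 and VCAN did not pass (adjusted p 0.25, 0.22, 0.11, 0.48 and 0.057). ELN passed without Day 30 replicate 3 (-2.93, adjusted p 0.014, within 0.014 to 0.48). FBLN1 passed without Day 30 replicate 4 (adjusted p 0.019) and with replicate number as a block (0.041), within 0.019 to 0.28. VCAN passed without Day 113 replicate 1 (adjusted p 0.026), 2 (0.0079) or 4 (0.043), and with the block (0.037), within 0.0079 to 0.19.

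Within a day, several of these genes were high and low in the same wells. At Day 30, replicates 2 and 3 were the 2 highest wells for 8 of the 10 genes, and replicate 4 was the lowest for 7. VCAN and POSTN were the exceptions and differed by only 1.27-fold and 1.32-fold between highest and lowest well, against 4.30-fold for FBLN1 and 2.93-fold for FN1. At Day 113, replicate 1 was highest for 7 genes and replicate 3 for the other 3, with replicate 3 among the 2 highest wells for all 10. Replicate 2 was the lowest for 7. The spread at Day 113 was widest for THBS2 (3.84-fold) and FN1 (3.79-fold), while FBLN1 (1.60-fold) and THBS1 (1.56-fold) were tightest. Day 60 was even, with at most 1.68-fold between wells (THBS2).

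**Figure D4:**
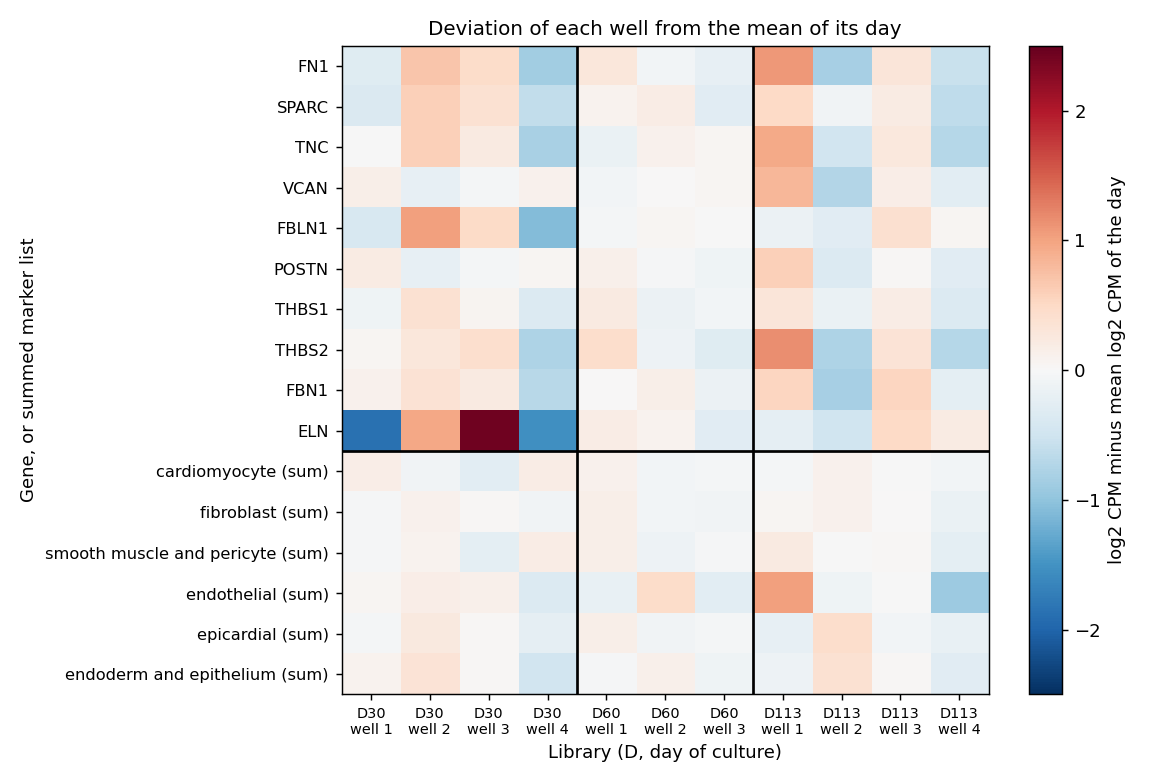
Deviation of each well (columns) from the mean log2 CPM of its day, for the 10 genes and, below the line, the summed level of 6 marker lists (rows). Red is above the day mean and blue below. Day 30 replicates 2 and 3 and Day 113 replicates 1 and 3 are red for most genes, and the endothelial sum is 1.02 above its day mean in Day 113 replicate 1.

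Marker lists of the cells such a culture could hold were also read, and their part in the changes above was not tested. Over all genes, 4.39% rose and 5.91% fell by Day 60, and 12.9% and 11.1% did after it. From Day 30 to Day 113 the shares were 17.3% and 17.2%. All 10 endothelial markers rose from Day 60 to Day 113, with sums of 82.8 to 119 CPM at Day 30, 51.6 to 85.6 at Day 60 and 255 to 973 at Day 113. The Day 113 sum was highest in replicate 1 (973 CPM) and lowest in replicate 4 (255 CPM). Of 9 fibroblast markers, 6 rose and 2 fell from Day 30 to Day 113 (median log2 2.29), but the sum, mostly GSN, stayed at 831 to 1086 CPM. Without GSN the other 8 summed to 186 to 264, 156 to 175 and 152 to 257 CPM on the 3 days. Of 10 smooth muscle and pericyte markers, 6 rose and 0 fell, with sums of 867 to 1170, 963 to 1160 and 1303 to 1801 CPM. Of 10 endoderm and epithelium markers, 9 fell by Day 60, with sums of 1579 to 2801, 689 to 806 and 814 to 1301 CPM. KRT8, a keratin, made up 96.1% of the mean sum at Day 113, and without it the other 9 summed to 587 to 1511, 70.9 to 83.0 and 29.2 to 62.0 CPM. At Day 30 the fibroblast, endothelial, epicardial and endoderm sums were each highest in replicate 2 and lowest in replicate 4, the same wells as for FN1. The smooth muscle (1170 CPM) and cardiomyocyte sums were instead highest in replicate 4, and the cartilage sum in replicate 1. At Day 113 the fibroblast (1006 CPM), epicardial (464) and endoderm (1301) sums were highest in replicate 2, where FN1 was lowest (819 CPM). GSN made up 79.1% of that mean fibroblast sum and KRT8 96.1% of the endoderm sum, so their well order is largely that of a single gene. The order of wells without the largest gene of a list was not examined on either day. The smooth muscle sum was then highest in replicate 1, as FN1 was. Of 8 epicardial markers, 3 rose and 3 fell by Day 113, with sums of 649 to 901, 595 to 698 and 297 to 464 CPM. KRT19, another keratin, made up 83.0% of the mean sum at Day 30, and the other 7 went the opposite way, with sums of 105 to 152, 160 to 213 and 199 to 278 CPM. Of 7 cartilage markers, 1 rose and 3 fell, with sums of 685 to 881, 196 to 232 and 69.0 to 104 CPM. COL2A1 made up 88.5% of the mean sum at Day 30, and the other 6 summed to 74.1 to 109, 48.0 to 53.2 and 44.4 to 58.6 CPM. The 7 markers of dividing cells summed to 370 to 464, 574 to 833 and 216 to 421 CPM on the 3 days. Of them 2 rose and 0 fell by Day 60, and all 7 fell after it. The cardiomyocyte list had 5 of 12 genes higher and 2 lower at Day 113 than at Day 30. That lower count, and the count of cartilage markers that rose, were near the shares over all genes. The 2 macrophage markers analysed summed to at most 4.05 CPM. At most 2 genes of the fibroblast list and of the endoderm list had 0 counts in a well, and the endothelial, smooth muscle and epicardial lists had none at 0.

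Lists of partner genes are read against all genes, of which 17.3% rose and 17.2% fell from Day 30 to Day 113. Among 16 elastic fibre genes, 9 rose and 4 fell from Day 30 to Day 113 (median log2 0.59, against -0.02 for all genes). EMILIN1, an elastin-associated glycoprotein, rose most (2.80 ± 0.32, adjusted p 7.4e-06, from 8.03 ± 1.95 to 56.1 ± 21.5 CPM, SD, n = 4). MFAP5, a microfibril-associated protein, fell most (-2.51 ± 0.51, adjusted p 0.0012) but was low throughout, from 5.52 ± 2.22 to 0.959 ± 0.636 CPM (SD, n = 4). Among 12 other matricellular genes, 4 fell and 2 rose by Day 60 (all genes, 5.91% and 4.39%), and 4 rose and 1 fell after it (12.9% and 11.1%). In that list TGFBI, an integrin-binding adhesion protein, fell most over the course, from 469 ± 292 to 52.3 ± 16.4 CPM (SD, n = 4; log2 -3.16 ± 0.37, adjusted p 8.4e-06). CCN3 rose most but remained low, from 0.159 ± 0.119 to 3.82 ± 2.77 CPM (SD, n = 4; adjusted p 0.00038).

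Of 15 receptors for fibronectin and matricellular proteins, 3 rose and 4 fell from Day 30 to Day 113 (median log2 0.01), counts near the shares over all genes. The integrin subunit ITGA4 rose most (2.00 ± 0.41, adjusted p 0.0014), and ITGB6, an integrin subunit of epithelia, fell most (-7.76 ± 0.66, adjusted p 3.8e-07). ITGB6 went from 64.3 ± 44.4 to 0.304 ± 0.406 CPM (SD, n = 4), near the detection limit, so the size of its fall is uncertain. Of 14 versican and hyaluronan partners, 4 rose and 3 fell (median 0.36), also near those shares. ACAN, the cartilage proteoglycan aggrecan, had 0 counts in all Day 30 and Day 60 wells and was at least 20.2-fold higher at Day 113 against a floor of 3 counts per library. That bound was 8.90-fold without Day 113 replicate 1, the highest well at 5.63 CPM (adjusted p with all wells 0.00057). ADAMTS20, a secreted metalloprotease, fell most (-2.11 ± 0.57, adjusted p 0.0091) but was low throughout, from 3.12 ± 1.27 to 0.707 ± 0.599 CPM (SD, n = 4).

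Of 11 TGF-beta pathway genes, 3 rose and 5 fell over the course (all genes, 17.3% and 17.2%), with a median log2 of -0.02. The receptor TGFBR2 rose most (1.52 ± 0.10, adjusted p 2.5e-08, from 65.1 ± 5.97 to 186 ± 13.8 CPM, SD, n = 4). The ligand TGFB2 fell most (-1.65 ± 0.13, adjusted p 2.4e-07, from 131 ± 13.97 to 41.8 ± 8.12 CPM). Of 7 fibrillar collagen genes, 3 fell and 0 rose by Day 60 (all genes, 5.91% and 4.39%), and 4 rose and 2 fell after it (12.9% and 11.1%). Over the whole course 1 rose and 2 fell, again near the shares over all genes. COL1A1, which encodes a chain of type I collagen, was the 1 that rose (0.87 ± 0.30, adjusted p 0.032). Its Day 113 replicates 2 (2059 CPM) and 4 (1691 CPM) lay within the Day 30 range of 1031 to 2284 CPM. COL2A1, the cartilage collagen, fell most (-4.51 ± 0.19, adjusted p 2.6e-10).

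Other genes with a similar course were sought among 11936 genes with a mean of at least 5 CPM, by the root mean square difference of log2 CPM over the 11 libraries after centring each gene. The closest to VCAN was FBN2 (0.27, where the centred values of VCAN itself had a root mean square of 0.80). The closest to THBS2 was BGN, the proteoglycan biglycan (0.39 of 1.78), which went from 10.3 to 21.6 and 149 CPM on the 3 days. SPARC was closest to IGFBP3, an insulin-like growth factor binding protein (0.17 of 0.68), and then to ARHGAP29 (0.19). POSTN was closest to PLSCR4 and TNS2 (0.20 each, of 0.80), FBN1 to PCDH18 (0.20 of 0.69) and ARHGEF6 (0.25), and THBS1 to PLSCR1 and HS6ST1 (0.17 each, of 0.48). TNC was closest to IL4R (0.27 of 1.23) and FBLN1 to MAPK13 (0.32 of 1.29). FN1 was closest to SLC7A5 (0.54 of 1.498) and ELN to SGCD (1.05 of 2.92). The libraries fall into 3 days, so a small difference describes a shared course over them.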

How the data were processed

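The authors deposited a table of raw counts, with 19990 gene symbols as rows and 11 poly(A) RNA libraries as columns. STAR 2.5.3a, featureCounts 2.0.3 and hg38 are named in the submitters' processing notes, while settings, annotation and use of strand are not given in the sources used here. Exons of TNC, SPARC, THBS1, ELN and VCAN overlap antisense genes, any single antisense gene over at most 7.89% of the exon length. THBS1 overlaps more than 1 (4.49% and 4.89%). Counts in these overlaps are uncertain. The authors also deposited TPM values, which were not used for results: CPM divided by TPM, which should be constant for a gene apart from a library factor, varied 20.3-fold to 680-fold between libraries for the 10 genes.

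Counts were tested with edgeR 4.0.16 (glmQLFit, glmQLFTest, TMM) in R 4.3.3, all 11 wells in 1 fit with day as the only factor. filterByExpr (minimum count 10) removed no gene. SE is the absolute log2 fold change over the square root of F. The test was also run on simulated counts drawn independently for each gene and well. Those counts lack the shared differences between wells described above, so the p-values were not checked against them. Wells count as replicates, so p-values cover only the spread between wells of 1 differentiation, and counting limits cover counting error only. Lengths and positions come from GENCODE 29 (GRCh38), promoters from RefSeq. Alternatives were RLE and upper-quartile scaling, a mean of at least 1 CPM, no filter, DESeq2 1.42.0, limma-voom (limma 3.58.1), robust dispersions, only the 2 days compared, a replicate block and leaving out each well.

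The members and the 6 pathway and 9 marker lists were chosen with earlier results of these data known. Named genes were the members, the 2 genes most like each, and the largest rise and fall from Day 30 to Day 113 in each pathway list. FBN2 was named as the gene most like VCAN. Marker sums without a list's largest gene were added after the values were seen. Listed genes outside the table were not analysed here.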

Additional observations from a re-analysis of the deposited data

Results flagged for a closer look

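The change after Day 60 differed from the change before it for 5 of the 10 genes, against 9.34% of all genes, by edgeR's test of that difference. Fewer of the 10 were called when any single Day 60 well was left out. The difference (log2, second interval minus first) was 4.90 for FN1, 2.57 for TNC, 2.51 for SPARC, 1.16 for THBS1 and 2.60 for THBS2, with adjusted p of 0.0018, 0.018, 0.0066, 0.029 and 0.039. Both intervals share the Day 60 wells, and the second is the longer. A check for outliers flagged 0 wells in the 20 groups of 4 wells examined (the 10 genes at Day 30 and at Day 113). Groups of 4 give such a check little power, and ELN at Day 30 still spanned 5 to 114 counts.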

How the results depend on the processing

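Of 760 recomputed fold changes of the 10 genes, 700 kept their direction and their side of the threshold, 42 lost a call (32 of them when a single well was left out), 7 gained one and 11 changed sign. Some runs could hardly differ from the main fit, so these counts overstate how far the results were tried. The run without a filter repeated the main fit, because the filter removed no gene. Leaving out a well of a day not compared moved a fold change little. From Day 60 to Day 113, the number of genes called was 4 in place of 7 with robust dispersions. For the difference between intervals it was 3 in place of 5 with robust dispersions, and 1 to 6 when single wells were left out. For the 3 comparisons of days, leaving out a well gave 5 to 7 (Day 60 against Day 30), 5 to 7 (Day 113 against Day 60) and 9 (Day 113 against Day 30) genes called. The cause of these losses was not tested.

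The signs that turned were of changes that were not called. TNC from Day 60 to Day 113 was -0.24 without Day 113 replicate 1 and otherwise up to 0.36 when a single well was left out. VCAN in the same interval was -0.0068 with RLE scaling, -0.063 with upper-quartile scaling, -0.010 among genes with a mean of at least 1 CPM, -0.0073 with DESeq2, -0.11 with limma-voom and -0.064 with the replicate block, and -0.34 to 0.21 when single wells were left out.

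Deviations of same-numbered wells correlated weakly but positively in all 10 pairs (0.023 to 0.076, none over 0.1). Pairs with different numbers ranged from -0.078 to 0.069, and 9 of 11 wells correlated best with a well of their own number. The labels do not say whether wells of the same number belong together, and the main fit did not model the number. With the replicate block 2474, 4954 and 7143 genes were called in the 3 comparisons, against 2060, 4790 and 6889 without it. The block also brought the difference between intervals under the threshold for FBLN1 (1.83, adjusted p 0.041) and VCAN (1.37, adjusted p 0.037), and it changed no other call of the 10 genes. Over all genes, Day 60 against Day 30 gave 1323 calls when Day 30 replicate 2 was dropped, 1259 when Day 60 replicate 1 was, and 1220 when Day 60 replicate 3 was. The difference between intervals gave 643 and 774 without Day 60 replicates 1 and 3, against 1868. Under upper-quartile scaling 2083 genes were higher and 2650 lower from Day 60 to Day 113, against 2570 and 2220.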
